A study of Mus musculus with 9 samples.

Results

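The genes described here set or mark epithelial identity, and their transcript levels were followed through 3 structures of the embryonic mouse kidney. They are the splicing regulators Esrp1 and Esrp2, the transcription factors Ehf, Elf3, Elf5, Grhl2 and Zeb1, the protease Tmprss2, the protease inhibitor Spint1 and the adhesion molecule Epcam. Members were found by gene symbol, as every probe set to which the platform annotation gives exactly 1 symbol from this list. This yielded 19 probe sets for 10 genes, out of 20380 probe sets for 12393 genes. The genes were picked with their levels on these same arrays already known, so differences between structures are given for them as a description, without p-values.

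The s-shaped body is the folded, later stage of the forming nephron, the renal vesicle is its first epithelial stage, and the collecting duct is the branched epithelium that grows out of the ureteric bud. All samples were wild-type mice of strain 129 at E14.5 (embryonic stage, Theiler stage 22), of unknown sex and without treatment. Each s-shaped body sample and each renal vesicle sample pooled 20 dissected structures, whereas each collecting duct sample was 1 collecting duct. Each structure had 3 Affymetrix MOE430A arrays hybridised after 2 rounds of T7 amplification. The labels define each minimally pooled sample as a biological replicate and do not say how many embryos contributed.

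Arrays of the same structure correlated at 0.939 to 0.982 across genes and arrays of different structures at 0.77 to 0.868, where genes are not independent replicates. Array medians lay between 112.2 and 144.8 intensity units. Marker lists followed the labels in part. The summed intensity of 9 nephron induction genes was 5933 to 6560 in the s-shaped body, 27080 to 27466 in the renal vesicle and 3041 to 3610 in the collecting duct. Ccnd1 was the brightest of them in the renal vesicle (11676 to 13876). The induction gene Fgf8 did not exceed 3.30 on any array. Wnt4 was higher in the duct (1148 to 1829) than in the s-shaped body (21.5 to 84.1). The 12 duct trunk genes summed to 1940 to 2175 in the s-shaped body, 2613 to 14971 in the renal vesicle and 41069 to 57452 in the duct. Most of the duct sums was Krt8, Krt18, Krt19 and Cdh16. Gata3, Wnt7b and Tfcp2l1 were also highest on the duct arrays. The duct values of Ret (107 to 182), Hoxb7 (105 to 190) and Wnt9b (8.26 to 27.5) overlapped those of both nephron structures. The 7 measured urothelium genes summed to at most 681 in the nephron structures, against 13212 to 15651 in the duct, and the water channel gene Aqp2 overlapped between the s-shaped body (134 to 299) and the duct (159 to 258). The s-shaped body also carried 10 endothelial genes at 9771 to 11373 (582 to 995 in the renal vesicle, 673 to 1051 in the duct). Its 5 erythroid genes summed to 18330 to 21977, against 435 to 2563 in the renal vesicle and 83 to 2440 in the duct. Most of the s-shaped body sum was Hbb-y (17130 to 20920). Hba-a1 overlapped between the s-shaped body (39.8 to 80.5) and the duct (46.3 to 68.7). The 6 cap mesenchyme genes stayed at 457 to 762 on all 9 arrays. The 7 macrophage genes summed to 3263 to 3892 in the s-shaped body, 600 to 864 in the renal vesicle and 799 to 926 in the duct. Most of the s-shaped body sum was Csf1r (2696 to 3115), and 4 of the 7 were below the array median on all arrays. Ptprc was instead lower in the s-shaped body (64.4 to 97.7) than in the renal vesicle (99.2 to 236).

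Renal vesicle replicate 3 stood apart from replicates 1 and 2. Its 6 podocyte genes summed to 9878, against 3026 and 2492 in replicates 1 and 2, beside 46772 to 54788 on s-shaped body and 563 to 604 on duct arrays. Calb1, which encodes calbindin and stands in the trunk list, read 341 in replicate 3 and 6589 and 9324 in replicates 1 and 2. It made up most of the 12-gene trunk sums of replicates 1 and 2. Calb1 did not mark the duct here, at 54.7 to 72.5 on duct and 119 to 129 on s-shaped body arrays. The other 11 trunk genes, a split made after the values were seen, summed to 2271 in replicate 3. Replicates 1 and 2 reached 3497 and 5647. Of these genes Cdh16, Krt8 and Krt18, the brightest in the renal vesicle, were lowest in replicate 3. Wnt7b (192, against 167 and 132) and Hoxb7 (134, against 82.1 and 83.0) were highest there. Each value of the renal vesicle is therefore printed for every replicate below.

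Epithelial identity is held by factors that oppose each other. Esrp1 and Esrp2 are RNA-binding proteins that select the epithelial forms of exons in genes such as Fgfr2. Grhl2 is a grainyhead factor that opens and activates epithelial genes, and Ehf, Elf3 and Elf5 are the epithelium-specific branch of the ETS family. Zeb1 is a zinc finger and homeodomain repressor that binds E-boxes of the form CAGGTG and shuts down epithelial genes, among them Cdh1 and the Esrp genes, and it is itself repressed by Grhl2. Nephrons form by the opposite of such a shutdown, when mesenchyme becomes epithelium, while the duct is epithelial throughout.

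Start regions of 5 of the 10 genes (6 windows of 250 bases before to 50 bases after a start, RefSeq, GRCm38.p6) were searched for the Zeb1 E-box, because Zeb1 and the other genes ran in opposite directions. The windows below show the gene with the most matches, the epithelial adhesion gene, and a gene with none, and capitals mark CAGGTG or its reverse complement CACCTG. They lie at chr2:103411848-103412147 (plus strand, Elf5), chr17:87635729-87636028 (plus strand, Epcam) and chr2:119237110-119237409 (plus strand, Spint1).
Elf5: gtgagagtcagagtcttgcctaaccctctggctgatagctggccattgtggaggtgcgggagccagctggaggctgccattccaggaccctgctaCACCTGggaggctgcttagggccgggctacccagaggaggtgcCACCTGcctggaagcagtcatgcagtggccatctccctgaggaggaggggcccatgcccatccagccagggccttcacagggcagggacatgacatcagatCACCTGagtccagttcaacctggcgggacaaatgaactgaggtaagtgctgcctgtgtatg
Epcam: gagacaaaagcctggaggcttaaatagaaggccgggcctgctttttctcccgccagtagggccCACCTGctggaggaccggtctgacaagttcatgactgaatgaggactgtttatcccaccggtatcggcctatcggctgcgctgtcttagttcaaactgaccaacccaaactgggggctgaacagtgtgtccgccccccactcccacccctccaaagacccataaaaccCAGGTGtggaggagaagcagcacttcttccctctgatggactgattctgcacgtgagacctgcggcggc
Spint1: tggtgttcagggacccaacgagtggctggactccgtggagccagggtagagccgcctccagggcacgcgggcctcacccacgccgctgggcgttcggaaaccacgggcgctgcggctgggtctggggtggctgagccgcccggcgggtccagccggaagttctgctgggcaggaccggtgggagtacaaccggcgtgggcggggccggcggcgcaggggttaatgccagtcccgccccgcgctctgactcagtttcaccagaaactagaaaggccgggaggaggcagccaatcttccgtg

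The Elf5 window held 3 matches, with first bases at -155, -112 and -11 from the start, and the Epcam window held matches at -187 and -19. Another Elf5 start (chr2:103423818-103424117) had a match at 22 and Elf3 (chr1:135258423-135258722, minus strand) had a match at -140. Spint1 and Tmprss2 (chr16:97611146-97611445, minus strand) had none in these windows. In all, 4 of 6 windows held the motif, which occurs on either strand in 20.2% of 32851 such windows. The grainyhead core AACCGG, or CCGGTT on the other strand, stood in 2 windows, at -63 in Spint1 and -68 in Elf3, and in 6.83% of all windows. The ETS core CGGAAG or CTTCCG was found in Spint1 only among the 6 windows, at -97 and 43, and in 16.9% of all windows. These 3 motifs share no position in the windows printed. A match is a run of letters and was not tested as a binding site.

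Levels are deposited intensities of the brightest probe set of each gene, and probe sets of different genes have no common scale. Esrp1 was bright in the duct and dim in the s-shaped body. It read 5.95, 19.01 and 6.40 in the 3 s-shaped body replicates, 418, 699 and 7.44 in the renal vesicle replicates, and 3997, 3618 and 2915 in the collecting duct replicates. Renal vesicle replicates 1 and 2 thus lay between the other structures, while replicate 3 lay within the range of the s-shaped body. No other member spread so far within a structure. The SD of Esrp1 among renal vesicle arrays, 2.39 log2 units, ranked number 3 of the 7998 genes tested. Values under 26, the 20th percentile of all values, are near the bottom of the scale, and their order carries little.

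Esrp2, the paralogue of Esrp1, was high in the duct and did not separate the nephron stages. Its intensities were 71.9, 185.6 and 91.2 on s-shaped body arrays, 87.9, 48.2 and 132.0 on renal vesicle arrays and 969.5, 965.7 and 1191 on duct arrays. The nephron structures overlapped, and all duct arrays lay above them. In renal vesicle replicate 3, where Esrp1 was near the bottom, Esrp2 was the highest of the 3 replicates. Another Esrp2 probe set was flat by comparison, at 90.8 to 124 in the s-shaped body, 93.5 to 143 in the renal vesicle and 145 to 236 in the duct.

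Among the ETS genes Ehf showed the widest range. It read 3.83, 1.34 and 6.90 on s-shaped body arrays, 142, 201 and 25.1 on renal vesicle arrays and 1609, 1238 and 1154 on duct arrays. As for Esrp1, renal vesicle replicate 3 was the dimmest of its structure, yet here it stayed above all s-shaped body arrays. The other Ehf probe sets, both dimmer, were also highest in the duct on every array, at 199 to 256 and 90.8 to 131. Elf5, known from mammary and trophoblast lineages, was at 10.9, 8.35 and 14.9 on s-shaped body arrays, 46.5, 116 and 71.5 on renal vesicle arrays and 594, 740 and 387 on duct arrays. The 3 structures formed separate ranges for Elf5, and replicate 3 lay between the other renal vesicle replicates. Elf3 had the smallest differences from the duct of the 10 genes, with 240, 267 and 241 on s-shaped body arrays, 252, 264 and 323 on renal vesicle arrays and 521, 463 and 453 on duct arrays. The nephron structures overlapped for Elf3 and both lay below the duct.

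Grhl2, the grainyhead activator, was at 70.8, 109 and 52.3 on s-shaped body arrays, 112, 155 and 110 on renal vesicle arrays and 566, 683 and 719 on duct arrays. The nephron structures were barely apart, since the highest s-shaped body value was 109 and the lowest renal vesicle value 110. Of its 4 probe sets, a second one above the intensity filter did not separate the structures (110 to 133, 57.5 to 160 and 120 to 180 in the same order), and of the dim ones 1 was highest in the duct (9.96 to 52.1 on s-shaped body, 5.68 to 66.2 on renal vesicle and 65.2 to 135 on duct arrays) and the other stayed at 4.41 to 17.6.

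Zeb1, the repressor, ran the other way. It read 4584, 3671 and 4171 on s-shaped body arrays, 357, 429 and 1041 on renal vesicle arrays and 69.9, 91.2 and 83.1 on duct arrays. The ranges of the 3 structures did not touch, and replicate 3 was the brightest renal vesicle array. A second, dim Zeb1 probe set, which was never above the median of its array, was instead lowest in the s-shaped body (9.86 to 13.0, against 24.9 to 64.9 in the renal vesicle and 50.8 to 54.8 in the duct), so the direction for Zeb1 rests on its brighter probe set. Zeb1 is a gene of mesenchyme and of vessels as well, and the s-shaped body arrays carried the endothelial sums given above together with 8 interstitium genes at 4478 to 5762 (1152 to 1722 in the renal vesicle, 379 to 597 in the duct). The 6 podocyte genes summed to 46772 to 54788 on the s-shaped body arrays and to 563 to 604 on duct arrays. In renal vesicle replicate 3, the brightest for Zeb1, the podocyte sum was 9878, against 3026 and 2492 in replicates 1 and 2. The endothelial sum was lowest in that replicate (582, against 762 and 995). The part of these cell types in the Zeb1 level was not tested. With whole structures a change in the number of cells of a type cannot be told from a change in RNA per cell.

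The membrane proteins came next. Spint1, an inhibitor of the protease matriptase, was at 107, 86.5 and 115 on s-shaped body arrays, 278, 343 and 231 on renal vesicle arrays and 1816, 2105 and 2216 on duct arrays. Tmprss2, a serine protease of epithelial surfaces, was at 149, 109 and 104 on s-shaped body arrays, 250, 256 and 153 on renal vesicle arrays and 4850, 4508 and 4913 on duct arrays. Both genes kept the 3 structures apart, although the lowest renal vesicle value of Tmprss2, in replicate 3, was close to the highest of the s-shaped body. The dimmer Tmprss2 probe set was also highest in the duct (261 to 323), and its nephron values overlapped at 9.34 to 69.9 and 13.0 to 70.0.

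Epcam, the adhesion molecule of simple epithelia, separated the nephron stages. It read 43.4, 53.6 and 16.9 on s-shaped body arrays, 794, 1022 and 487 on renal vesicle arrays and 4305, 3541 and 3129 on duct arrays. Every renal vesicle array, replicate 3 included, lay far above every s-shaped body array.

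**Figure D1:**
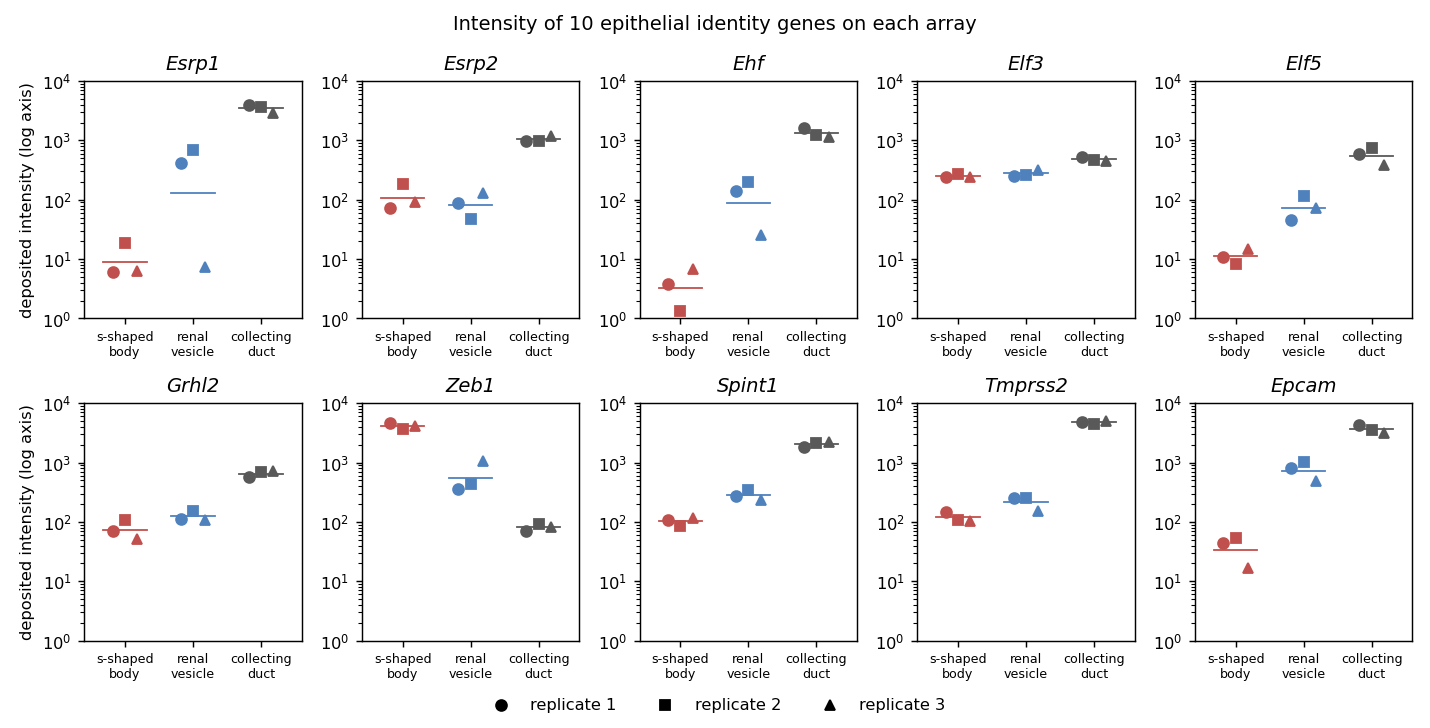
Deposited intensity (log axis) of the brightest probe set of each of the 10 genes on each array, with s-shaped body left, renal vesicle in the middle and collecting duct right, symbols for the replicate number and a line at the geometric mean of 3 arrays. Zeb1 was highest in the s-shaped body and the other 9 genes in the duct, and Esrp1 in renal vesicle replicate 3 (7.44) lay beside the s-shaped body values.

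**Figure D2:**
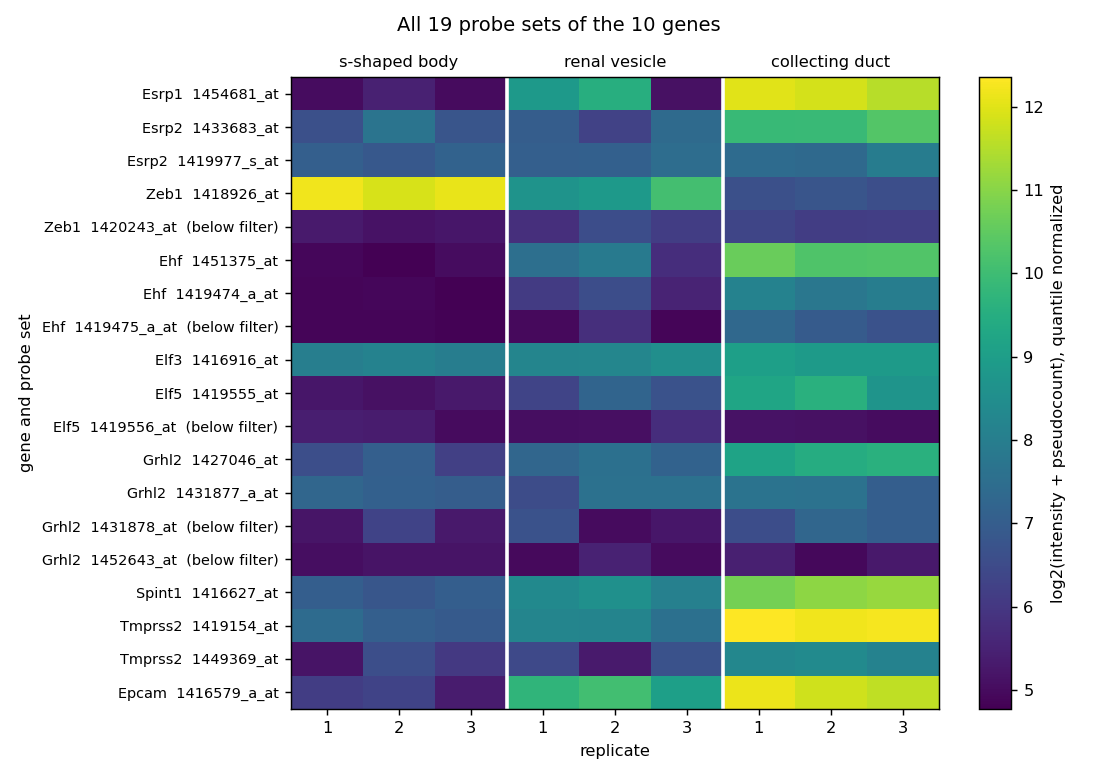
Quantile normalized log2(intensity + pseudocount) of all 19 probe sets, in rows, on the 9 arrays, in columns by structure and replicate, with the 5 probe sets that did not pass the intensity filter marked. The dim probe set of Zeb1 was lowest in the s-shaped body, where the brightest one was highest, and the dim probe set of Elf5 stayed at 6.34 to 24.9 on all 9 arrays.

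Differences were then computed on the log2(intensity + 26) scale after quantile normalization, from a limma fit over all 9 arrays and 7998 genes, and a gene is called changed at a Benjamini-Hochberg adjusted p under 0.05. This scale understates the folds of dim genes. Every one of the 10 genes had at least 1 probe set that passed the intensity filter, as did 14 of the 19 probe sets. Elf5 was above the array median on 3 arrays, all from the duct, and Esrp1, Esrp2, Ehf and Grhl2 on 5 of the 9, the duct arrays among them.

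In the renal vesicle against the collecting duct, 9 of the 10 genes were called lower and Zeb1 was called higher. Of all genes tested 31.5% were called (15.9% lower and 15.6% higher), and since the members were chosen on this contrast nothing follows from their count. Tmprss2 was 19.2-fold lower (log2 difference -4.27, SE 0.21) and Esrp1 15.7-fold lower (-3.98, SE 0.82), with Esrp1 carrying the widest error of the 10. Without renal vesicle replicate 3 the Esrp1 difference was -2.60, and the log2 difference of Ehf was -2.67 in place of -3.33 (SE 0.42). Esrp2 was 8.92-fold lower (-3.16, SE 0.32), Spint1 6.37-fold (-2.67, SE 0.18), Elf5 5.33-fold (-2.42, SE 0.28), Epcam 4.78-fold (-2.26, SE 0.29) and Grhl2 4.19-fold (-2.07, SE 0.23). Elf3 was 1.55-fold lower (-0.63, SE 0.16), and Zeb1 5.82-fold higher (2.54, SE 0.30). The arrays of the structures did not overlap for any of the 10, where 22.1% of all genes were lower and 21.2% higher without overlap.

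In the s-shaped body against the collecting duct the same 9 genes were called lower and Zeb1 higher, beside 32.8% of all genes called (15.9% lower and 16.9% higher), and again nothing follows from the count. This contrast uses the same duct arrays. Esrp1, Ehf and Elf5 read under 26 on all s-shaped body arrays, so the size of their folds and their rank rest on the pseudocount. With 4 times the pseudocount the log2 differences were -5.00 for Esrp1, -3.72 for Ehf and -2.50 for Elf5, and with 0.5 times -7.30, -6.31 and -4.54. Esrp1 was 99.9-fold lower (-6.64, SE 0.82), Epcam 60.9-fold (-5.93, SE 0.29), Ehf 45.1-fold (-5.49, SE 0.42) and Tmprss2 34.8-fold (-5.12, SE 0.21). Spint1 and Elf5 followed at 16.5-fold (-4.05, SE 0.18) and 15.4-fold (-3.95, SE 0.28), then Esrp2 at 8.09-fold (-3.02, SE 0.32) and Grhl2 at 6.83-fold (-2.77, SE 0.23). Elf3 was 1.88-fold lower (-0.91, SE 0.16), while Zeb1 was 41.9-fold higher (5.39, SE 0.30). The arrays did not overlap for any of the 10 genes, against 22.6% of all genes lower and 21.3% higher without overlap.

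In the s-shaped body against the renal vesicle 7 of the 10 genes were called lower, Zeb1 was called higher, and Esrp2 and Elf3 were not past the threshold. Of all genes 36.3% were called (17.8% lower and 18.5% higher). On the normalized scale Zeb1 was higher without overlap and 7 genes were lower without overlap, beside 25.9% and 27.0% of all genes. These 7 are not the 7 called, since they include Elf3, whose deposited intensities overlapped, and leave out Esrp1. Epcam was 12.7-fold lower (-3.67, SE 0.29) and Zeb1 7.20-fold higher (2.85, SE 0.30). Ehf was 4.47-fold lower (-2.16, SE 0.42), Elf5 2.89-fold (-1.53, SE 0.28), Spint1 2.59-fold (-1.37, SE 0.18), Tmprss2 1.81-fold (-0.86, SE 0.21) and Grhl2 1.63-fold (-0.70, SE 0.23). Esrp2 differed by 0.14 (SE 0.32), a sign that turned without replicate 2 of the renal vesicle (-0.16) or of the s-shaped body (-0.18), and Elf3 by -0.28 (SE 0.16). For Esrp1 the difference was -2.67 (SE 0.82), and the normalized values overlapped, as did those of Esrp2. Without renal vesicle replicate 3 it was -4.04, beside -3.95 for Epcam. The Esrp1 call was lost without renal vesicle replicate 1 (-2.15) or 2 (-1.82) and without s-shaped body replicate 1 (-2.59) or 3 (-2.58), and the Grhl2 call without renal vesicle replicate 1 (-0.73) or 2 (-0.59), s-shaped body replicate 1 (-0.69) or 3 (-0.50), or duct replicate 2 (-0.71). For Grhl2 the call was lost in 11 of 23 alternative settings, among them 4 times the pseudocount (-0.43), no further normalization (-0.58), no filter and a fit of only the arrays compared (both -0.70).

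**Figure D3:**
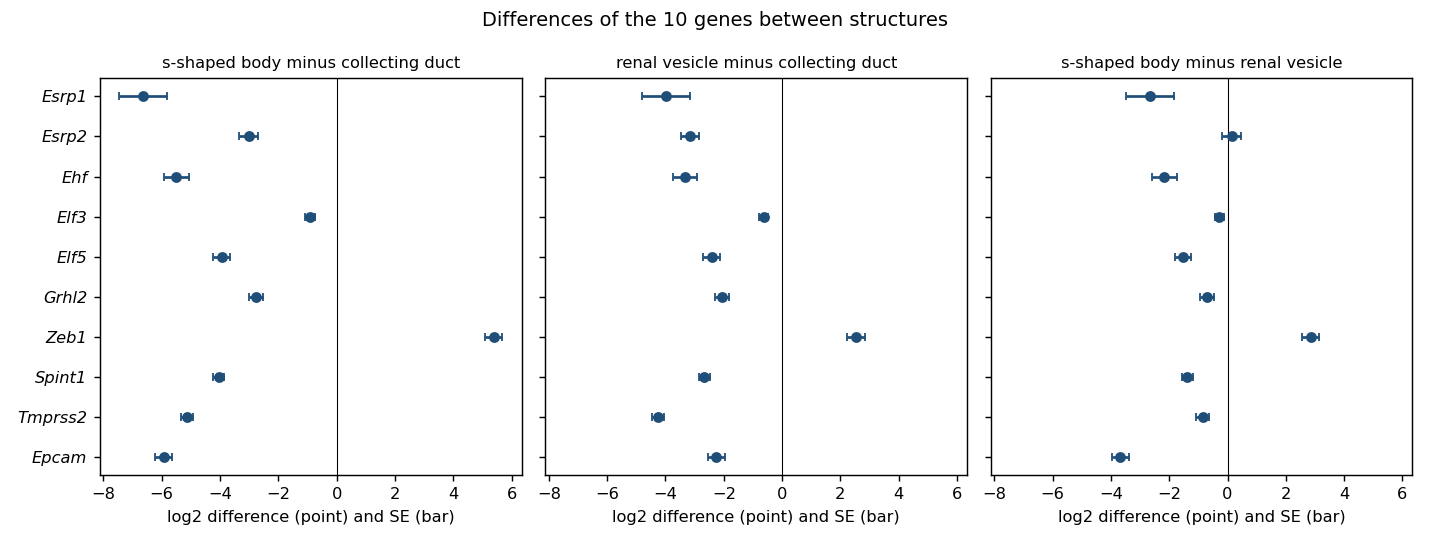
Log2 differences (points) with SE (bars, limma, 3 arrays per structure) of the 10 genes for s-shaped body minus collecting duct, renal vesicle minus collecting duct and s-shaped body minus renal vesicle. Zeb1 lay right of 0 in each panel, and Esrp1 had the widest bar, at 0.82.

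The median log2 difference of the 10 genes was -4.00 for s-shaped body against duct, -2.54 for renal vesicle against duct and -1.12 between the nephron stages, where all genes had medians of -0.03, 0.01 and -0.03. The place of the renal vesicle between the other structures is given as a description. On the log2 scale, with the s-shaped body at 0% and the duct at 100%, the renal vesicle mean of Epcam stood at 61.9% and that of Zeb1 at 52.8%. Esrp1, Ehf and Elf5 stood at 40.2%, 39.3% and 38.8%, Spint1 at 34%, Elf3 at 30.7%, Grhl2 at 25.4% and Tmprss2 at 16.7%. Esrp2 was at -4.67%, just outside the interval on the side of the s-shaped body. Replicate 3 weighed on several of these values, and without it Esrp1 stood at 60.8%, Ehf at 51.3%, Zeb1 at 60.9%, Epcam at 66.7%, Elf3 at 20.6% and Esrp2 at -12.9%. Without replicate 2 Esrp2 stood at 5.45%. Over the 9 arrays the Pearson correlation of Zeb1 with the 9 other genes ran from -0.986 (Epcam) to -0.775 (Esrp2), and Esrp1 and Ehf correlated at 0.985. These values describe 9 points that share their structure and scaling, and most of their spread lies between structures.

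Genes outside the list with the most similar profile over the 9 arrays (5 each, by Pearson correlation of log2 values) differed between members. For Esrp1 these were Cldn8 (0.997), Wfdc15b (0.985), Krt10 (0.984), B4galt6 (0.984) and Mboat1 (0.983). The Grhl2 profile was closest to those of Cldn4 (0.992), Mfsd6 (0.992), Rnf43 (0.990), Slc38a2 (0.989) and Cyp4v3 (0.987). Epcam came closest to Fam241b (0.990), the epithelial cadherin gene Cdh1 (0.990), Ndrg4 (0.986), Cdcp1 (0.985) and Tmem170 (0.985). Zeb1 was matched by Pip4k2a (0.996), Fermt2 (0.995), Dok1 (0.995), the nidogen gene Nid1 (0.994) and Tnfaip2 (0.993).

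**Figure D4:**
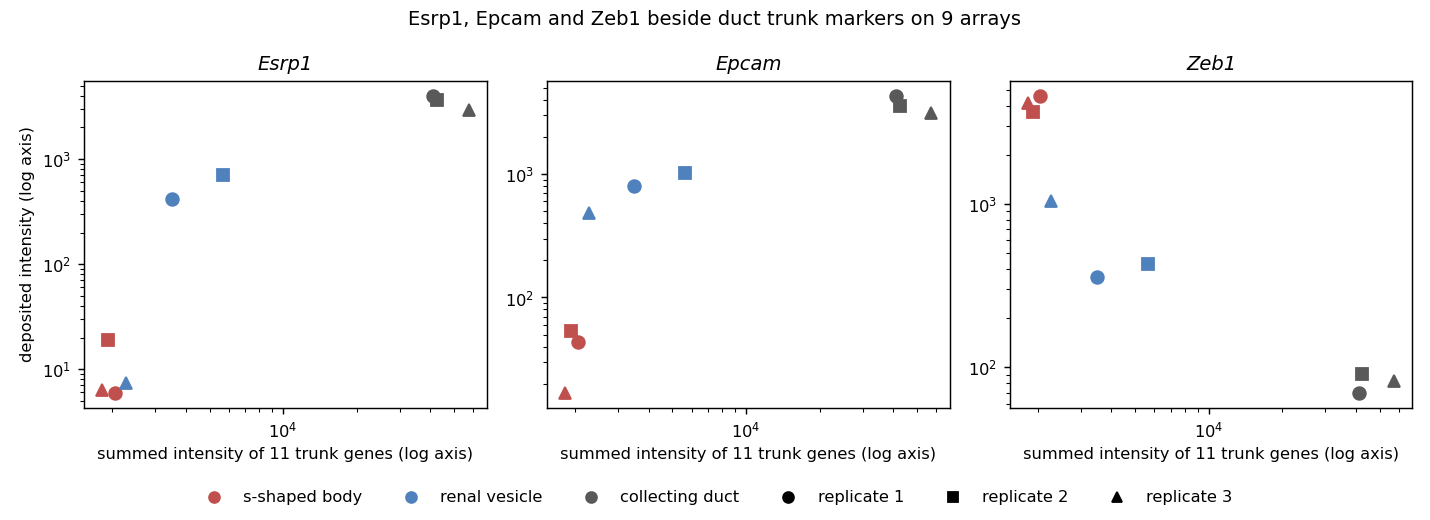
Deposited intensity (log axis) of Esrp1, Epcam and Zeb1 against the summed intensity of 11 duct trunk genes without Calb1 (log axis), 1 point per array, coloured by structure with a symbol for the replicate. In the duct most of the trunk sum was Krt8, Krt18, Krt19 and Cdh16. Renal vesicle replicate 3 (trunk sum 2271) lay beside the s-shaped body arrays for Esrp1 and between the structures for Epcam and Zeb1.

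Related genes were then examined with the limma test, adjusted over all 7998 genes. Of all genes, 15.6% were called higher and 15.9% lower in the renal vesicle against the duct. The shares were 16.9% and 15.9% for the s-shaped body against the duct, and 18.5% and 17.8% from renal vesicle to s-shaped body. Among genes named below, Foxa1, Trp63, Klf5, Ovol1 and Prss8 passed the filter through the duct arrays alone. Prrx1 did so through the renal vesicle and Fli1 through the s-shaped body. Their direction was partly set by the filter. Only some of the factors known to promote the mesenchymal state could be compared with Zeb1. Of 10 listed and measured factors 5 passed the intensity filter, and Zeb2, Snai1, Snai2, Snai3 and Twist1 were not tested. In the renal vesicle against the duct 3 rose and 0 fell (median 1.39, against 0.01 for all genes), and for the s-shaped body against the duct 2 rose, with 0 falling (median 0.52, against -0.03 for all genes). Foxc2, a forkhead factor that is also a podocyte gene, was at 10.78 ± 0.17 in the s-shaped body, 10.05 ± 0.37 in the renal vesicle and 5.09 ± 0.11 in the duct (log2, SD, n = 3 each, limma adjusted p = 3.4e-09 and 7.9e-09 against the duct). Tcf4, an E-protein gene, rose by 1.63 (SE 0.18) in the s-shaped body and by 1.39 (SE 0.18) in the renal vesicle against the duct. Prrx1, a homeobox gene of mesenchyme, was higher in the renal vesicle than the duct (2.48, SE 0.37, adjusted p = 0.00031) and was lower in the s-shaped body than in the renal vesicle (-1.96, adjusted p = 0.0014). With no filter another probe set stood for Prrx1, and neither call was kept (0.23 and -0.29). Tcf3, an E-protein gene, was lower in the s-shaped body than in the renal vesicle (-0.55, adjusted p = 0.049), but the call was lost when s-shaped body replicate 1 (-0.50), 2 (-0.62) or 3 (-0.52) was left out and likewise for renal vesicle replicate 1 (-0.54) or 2 (-0.44).

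Other transcription factors of epithelia were mostly highest in the duct, as were the members. Of 7 tested 6 were lower and 1 higher in the renal vesicle against the duct (median -2.84), and in the s-shaped body 5 were lower, with 0 higher (median -3.26). Foxa1, a forkhead factor of endoderm and urothelium, was at 5.82 ± 0.21 in the s-shaped body, 6.38 ± 0.47 in the renal vesicle and 13.42 ± 0.14 in the duct. Trp63, the stem cell factor of stratified epithelia, was at 6.07 ± 0.14, 6.54 ± 0.29 and 11.29 ± 0.37 in the same order. Both genes stand in the urothelium marker list and make up most of its duct sums given above, so those sums are not separate from their levels. Of the other listed genes Upk3a read at most 23.2 on s-shaped body and 46.8 on renal vesicle arrays, against 477 to 769 in the duct, and Upk3b at most 141 and 22.3, against 286 to 356. The duct values of Upk2 (259 to 400) and Krt5 (23.9 to 52.3) overlapped those of both nephron structures. The part of urothelial cells in the duct levels of the members was not tested. Klf5, a Krueppel-like factor of epithelia, differed from the duct by -3.70 (SE 0.23) in the s-shaped body and -3.14 (SE 0.23) in the renal vesicle. When any duct array was left out, that Klf5 probe set no longer passed the filter and another one stood for the gene, at -1.21 to -1.13 for the s-shaped body and -1.50 to -1.42 for the renal vesicle, all past the threshold. Tfcp2l1, a grainyhead relative of collecting duct cells, differed by -3.26 and -2.84 (SE 0.31 each) in the same order. Ovol1, of the ovo family of epithelial repressors, differed by -1.75 and -1.25 (SE 0.22 each), and its renal vesicle value was -0.80 (adjusted p = 0.0701) with its most variable probe set. Grhl1, the paralogue of Grhl2, differed from it: its renal vesicle level was above that of the duct (1.00, SE 0.19, adjusted p = 0.0018) and lower in the s-shaped body than in the renal vesicle (-0.90, adjusted p = 0.0029). Klf4 was lower in the renal vesicle than the duct (-1.65, SE 0.22), and 1.19 higher (SE 0.22) in the s-shaped body than in the renal vesicle.

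ETS genes outside the Ehf, Elf3 and Elf5 group moved upwards in the s-shaped body. Of 9 tested 6 were higher and 1 lower there than in the duct (median 0.96), and 5 were higher and 0 lower than in the renal vesicle (median 0.73). In the renal vesicle 1 was higher and 3 were lower than in the duct (median 0.24). Fli1, an ETS factor of blood and endothelium, was 3.61 higher (SE 0.34) in the s-shaped body than in the duct and 3.29 higher than in the renal vesicle. Ets1 was 3.03 higher (SE 0.29) than in the duct, and Elk3 1.48 higher (SE 0.18). Fli1, Ets1 and Elk3 are known from endothelium, and the 10 endothelial marker genes summed to 9771 to 11373 in the same s-shaped body arrays, with at most 1051 elsewhere. The part of endothelial cells in the levels of the ETS genes was not tested. Ets2 differed from the duct by 0.96 in the s-shaped body and by -0.74 in the renal vesicle (SE 0.15 each). Elf1, a widely expressed relative of Elf5, lay below the duct level in both, by -1.58 for the s-shaped body and -1.97 for the renal vesicle (SE 0.23 each). The calls of Elf2 (0.79) and Elk4 (1.10) against the duct were also rises in the s-shaped body. That of Elf2 was lost without s-shaped body replicate 1 (0.59) or 3 (0.84) or duct replicate 3 (0.54), and with array weights (0.41). The smaller rise of Elk4 in the renal vesicle against the duct (0.54) was lost without renal vesicle replicate 2 (0.52) or 3 (0.46) or duct replicate 2 (0.48), and its rise in the s-shaped body against the renal vesicle (0.56) without renal vesicle replicate 1 (0.48) or s-shaped body replicate 2 (0.52), and with median centring (0.39).

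Most splicing regulators other than the Esrp genes were not called against the duct, and those that were called lay above it. Of 10 tested 4 rose and 0 fell in the renal vesicle (median 0.25), where 15.6% of all genes were called higher. For the s-shaped body 2 rose and 0 fell (median -0.07), a share near the 16.9% of all genes called higher. From renal vesicle to s-shaped body 3 fell, 0 rose and 7 were not past the threshold (median -0.29). Ptbp2, the neural polypyrimidine tract protein gene, was 1.31 above the duct (SE 0.31, adjusted p = 0.0065) in the renal vesicle, a value of 0.87 without duct replicate 3, and differed by -1.46 between s-shaped body and renal vesicle. Mbnl1 rose by 1.02 (SE 0.20) in the s-shaped body and 0.81 (SE 0.20) in the renal vesicle against the duct, the second call being lost without renal vesicle replicate 3 and duct replicate 2 together (adjusted p = 0.0625). Qk, which encodes quaking, rose by 0.63 (SE 0.17, 0.55 and no call without s-shaped body replicate 1) and 0.76 (SE 0.17), and Srsf1 by 0.69 (SE 0.18) in the renal vesicle (0.45 without duct replicate 3). Probe sets of these genes disagreed in size, since the most variable one gave Qk 3.19 (s-shaped body) and 1.57 (renal vesicle) against the duct, and Srsf1 1.90 in the renal vesicle. The arrays used here give 1 value per probe set and do not resolve exons, so splicing itself was not measured.

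Genes whose exons the Esrp proteins regulate were measured as totals. Of 5 tested 3 were lower and 0 higher in the renal vesicle against the duct (median -1.28). For the s-shaped body 2 were lower, with 0 higher (median -0.38). Of all genes 15.9% were called lower in each of these contrasts. Fgfr2, the receptor with an epithelial and a mesenchymal form, was highest in the duct, at 9.62 ± 0.25 in the s-shaped body, 10.85 ± 0.32 in the renal vesicle and 12.13 ± 0.25 in the duct. All 3 of its contrasts were called (limma adjusted p = 1.4e-06 and 0.00055 for the s-shaped body and the renal vesicle against the duct, and 0.00068 between the nephron stages). Renal vesicle replicate 3, with Esrp1 near the bottom, had the highest Fgfr2 level of its structure (11.21, against 10.60 and 10.73). Enah, an actin regulator, was lower in the s-shaped body than the duct (-1.17, SE 0.17) or the renal vesicle (-0.83, SE 0.17), whereas Numb was lower in the renal vesicle than the duct (-1.57, SE 0.22). Cd44 was lower in the renal vesicle than in the duct (-1.32, SE 0.29), and its rise in the s-shaped body against the renal vesicle (0.94) was lost without renal vesicle replicate 2 (0.80) or s-shaped body replicate 1 (0.75).

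The few tested genes of the protease network around Spint1 were lower in both nephron structures than in the duct. Of 13 listed genes 12 were on the array and 4 passed the filter, and all 4 were lower than in the duct in the renal vesicle (median -2.02) and in the s-shaped body (median -3.06). Spint2, the paralogue of Spint1, was at 9.55 ± 0.08 in the s-shaped body, 10.67 ± 0.10 in the renal vesicle and 12.50 ± 0.29 in the duct (adjusted p = 7.5e-08 and 6e-06 against the duct). St14, which encodes matriptase, the target of both inhibitors, differed from the duct by -3.17 (s-shaped body) and -2.21 (renal vesicle) (SE 0.27 each). Prss8, the prostasin gene of the same cascade, differed by -3.65 and -2.40 (SE 0.29 each). Between the nephron stages 3 of the 4 were lower in the s-shaped body, with St14 at -0.96, a call lost without renal vesicle replicate 1 (-0.81) or 2 (-0.80) or s-shaped body replicate 2 (-0.78). Serpinb6a, a protease inhibitor gene, was instead higher in the s-shaped body than in the renal vesicle (0.81, SE 0.22, adjusted p = 0.011), a call lost without s-shaped body replicate 2 (0.63). The 8 genes on the array that were not tested were Hpn, Tmprss4, Serpinb5, Hgf, Hgfac, Met, Mst1 and Mst1r.

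Adhesion, polarity and trafficking genes of epithelia were mostly lower than in the duct. Of 14 tested 14 were lower and 0 higher in the s-shaped body than in the duct (median -2.57), and for the renal vesicle 10 were lower, with 0 higher (median -2.04). Between the nephron stages the s-shaped body was lower for 10 and higher for 1 (median -1.24). The 1 that was higher was the tetraspanin gene Tspan8 (3.52), named after its values were seen, which differed from the duct by -2.34 (s-shaped body) and -5.86 (renal vesicle). Crb3, Prom1, Cdh3 and Dsp were not past the threshold in the renal vesicle against the duct, at -0.35, 0.20, -0.17 and -0.45. Cdh1, the epithelial cadherin gene and a classical target of Zeb1, was at 6.18 ± 0.47 in the s-shaped body, 9.81 ± 0.30 in the renal vesicle and 11.91 ± 0.13 in the duct. The Cdh1 level of renal vesicle replicate 3 (9.62) was next to that of replicate 1 (9.65) and replicate 2 (10.16). The keratin genes Krt8 and Krt18 were lower in replicate 3 (8.93 and 8.87) than in replicate 1 (9.91 and 9.75) and replicate 2 (10.33 and 10.13). Both are counted in the trunk sums given above, so this is not a separate observation. Cldn4, a claudin gene activated by Grhl2 in other epithelia, differed from the duct by -4.33 (s-shaped body) and -3.43 (renal vesicle) (SE 0.28 each). Its smaller fall in the s-shaped body against the renal vesicle (-0.90) was not called without renal vesicle replicate 1 (-0.85) or 2 (-0.70) or s-shaped body replicate 3 (-0.63).

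Mesenchymal state genes took the direction of Zeb1. All 12 tested were higher in the s-shaped body than in the duct (median 3.78), and for the renal vesicle 9 were higher, with 1 lower (median 1.90). Between the stages the s-shaped body was higher for 9 and lower for 1 (median 1.07). Cdh2, the neural cadherin gene used by early nephrons, was the one lower (-1.59, SE 0.20), and lay above the duct by 3.51 (s-shaped body) and 5.10 (renal vesicle). Another Cdh2 probe set stood for the gene when any renal vesicle array was left out. It gave -0.79, -0.74 and -0.80 between the stages without replicates 1, 2 and 3, and was not past the threshold without replicate 1 or 2. Cdh11 was 4.46 higher (SE 0.21) in the s-shaped body and 4.26 higher (SE 0.21) in the renal vesicle than in the duct. Mmp2, a matrix metalloproteinase gene, was 4.11 and 4.45 higher (SE 0.22 each), and Acta2, the smooth muscle actin gene, 3.93 and 0.93 higher (SE 0.17 each). The s-shaped body arrays with these levels also carried the interstitium, endothelium and podocyte sums given above, and their part in the list's levels was not tested.

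**Figure D5:**
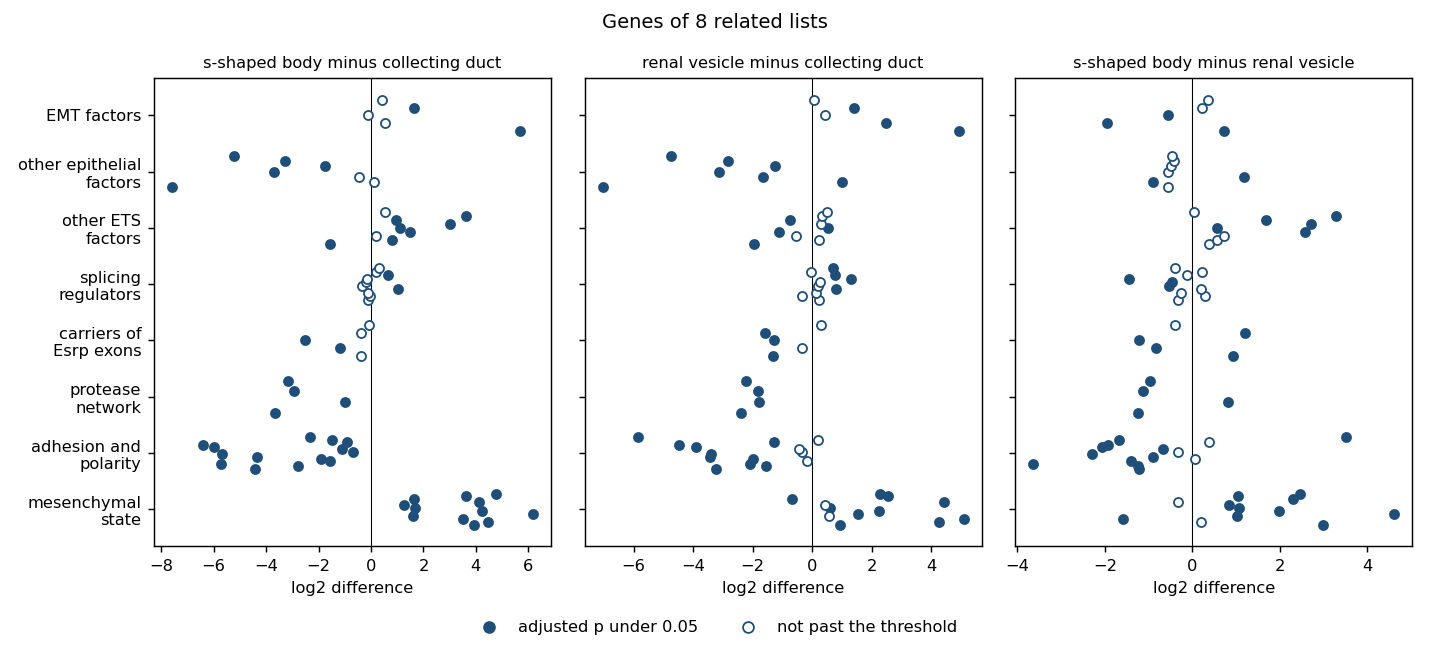
Log2 differences of the tested genes of 8 related lists (rows) for s-shaped body minus collecting duct, renal vesicle minus collecting duct and s-shaped body minus renal vesicle, with filled points for limma adjusted p under 0.05 and open points for genes not past it. All 14 adhesion and polarity genes lay left of 0 and all 12 mesenchymal genes right of 0 in the s-shaped body against the duct.

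Scaling moved the balance of calls over all genes. In the renal vesicle against the duct 1251 genes were higher and 1268 lower (49.7% higher), whereas median centring gave 1559 and 1045 (59.9% higher) with the median of all genes at 0.11. In the s-shaped body against the renal vesicle median centring put the median of all genes at -0.11. Median centring turned the direction of no member in any of the 3 contrasts. The Gapdh intensity at the 3' end over that at the 5' end was at least 20.0 on the s-shaped body arrays and at most 18.6 on the arrays of the other structures. What this ratio has to do with the lower s-shaped body values was not tested.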

How the data were processed

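RNA of 9 samples was read on Affymetrix MOE430A arrays. The authors deposited 1 linear intensity for each probe set of each array. GCOS is named in the submitters' processing notes without a version or algorithm, and no detection calls were used. Trimmed means of 500.2 to 500.3 show that the deposited values share a common scale. Of 22690 probe sets 64 controls were removed. Symbols come from the platform annotation of 2016.

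The deposited values were taken as log2(intensity + 26), where 26 is the 20th percentile of all values, and quantile normalized. Probe sets above their array's median on at least 3 arrays were kept, and each gene was represented by its brightest probe set, leaving 7998 genes. Contrasts between structures were fitted in limma 3.58.1 under R 4.3.3 (two-sided, lmFit, eBayes with an intensity trend, 6 residual degrees of freedom) and adjusted by the Benjamini-Hochberg method over all genes. The procedure was tested on simulated data. The number of arrays limits the precision, and the p-values rest on the spread between samples of the same structure. Nephron samples were pools of 20 structures and duct samples were single ducts, and the fit shared 1 spread per gene between them.

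The members and the gene lists were chosen with earlier results of these data known. The members, picked for these very differences, carry no p-values, and the adjusted p-values and counts of the other lists are no independent evidence of a direction. The text names every member, all called genes of the 3 transcription factor lists, up to 4 called genes with the smallest adjusted p of each other list, and 5 genes of most similar profile for Esrp1, Grhl2, Epcam and Zeb1. Alternatives in pseudocount, scaling, filter, probe set, variance model, samples and threshold were tried. Promoter sequences are from RefSeq (GRCm38.p6) and were matched by symbol. A whole chromosome was left out of this search by choice, so any member window there was not searched. Windows of 5 of the 10 genes were used.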

Additional observations from a re-analysis of the deposited data

How the results depend on the processing

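Over 23 alternative settings no member past the threshold changed direction, while Esrp2 between the nephron stages, which was not past it, turned sign in 2 of them. Of 663 pairs of a member contrast and a setting, 645 kept the call or stayed uncalled, the 2 sign turns of Esrp2 among them. In 18 pairs the call was lost, and these were contrasts of Elf3, Esrp1, Grhl2 and Tmprss2. For the other named genes 2441 of 2523 pairs kept the call and its direction or stayed uncalled. Of the rest 60 lost the call, 21 gained it and 1 reversed: Qk in the s-shaped body against the renal vesicle was 1.62 with its most variable probe set, in place of -0.13. Requiring at least 2-fold gave 1212, 1423 and 1380 changed genes for renal vesicle against duct, for s-shaped body against duct and between the nephron stages, in place of 2519, 2624 and 2907. With probe sets above the median in at least 6 arrays, 5 members were tested, since Esrp1, Esrp2, Ehf, Grhl2 and Elf5 were above it on at most 5, and 5, 5 and 4 were called in place of 10, 10 and 8. Omitting renal vesicle replicate 3 and duct replicate 2 together left 1543 changed genes in the first contrast. Leaving out each array in turn gave 1831 to 2502, 1915 to 2699 and 2133 to 3403 changed genes, and 9 to 10, 9 to 10 and 6 to 8 members; Elf5 fell below the filter without any 1 of the duct arrays. With the replicate number as a block the counts were 2607, 2644 and 2995, and the members called were 10, 10 and 8. Deviations of same-numbered arrays correlated at -0.03 to 0.16. Not every pair exceeded 0.1, so the numbers were not taken to pair the arrays, although 10 of 18 array comparisons were best for the same number, where 6 of 18 would be if numbers played no part. The block ended the Tcf3 call between the nephron stages (adjusted p = 0.0643) and brought Foxa1 (0.0493) and Klf5 (0.0487) past the threshold there. The pseudocount and the lack of detection calls limit what can be said of genes near the bottom of the scale.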
